A study of Homo sapiens with 24 samples.

Results

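The human mitochondrial genome was represented by 37 of the 60675 genes counted in this RNA-seq experiment. They were taken as all genes that the count tables place on the mitochondrial chromosome (MT), and comprised 13 mRNA genes, 2 rRNA genes and 22 tRNA genes. The experiment asked how knockdown of METTL3, the catalytic subunit of the nuclear m6A RNA methyltransferase, and the synthetic androgen R1881 change the transcriptome of prostate cancer (PCa) cells. A total of 24 libraries covered 8 groups of 3, formed by cell line (LNCaP:C4-2 or 22Rv1), siRNA pool (siSCR, a non-targeting control pool, or siMETTL3, a pool against METTL3) and treatment (ethanol vehicle or 1 nM R1881). Cells of all groups were grown in charcoal-stripped serum, were transfected again 48 h after the first transfection, and received R1881 or vehicle for 72 h. LNCaP:C4-2 is a castration-resistant derivative of the androgen-sensitive line LNCaP, and 22Rv1 is a castration-resistant line derived from a xenograft. The labels do not say whether the 3 libraries of a group came from separate cultures, so p-values measure the spread between these libraries, which may be technical.

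Mitochondrial DNA is transcribed from both strands as long polycistronic RNAs by the polymerase POLRMT with the factors TFAM and TFB2M. The tRNAs lie between most of the mRNAs and rRNAs, and their excision at each end by RNase P and ELAC2 frees the other RNAs. The mRNAs encode subunits of complex I (MT-ND genes), complex III (MT-CYB), complex IV (MT-CO genes) and ATP synthase (MT-ATP genes), and the rRNAs form the mitochondrial ribosome. MT-ND6 and 8 tRNAs are encoded on the minus strand.

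The tRNA genes below are shown because their counts either moved between groups or moved opposite to the mRNAs between libraries of the same group. Sequences are from hg38, 5′ to 3′ on the coding strand, with the anticodon in capitals. MT-TH (histidine) lies at chrM:12138-12206 on the plus strand, MT-TL1 (leucine) at chrM:3230-3304 on the plus strand, MT-TC (cysteine) at chrM:5761-5826, MT-TY (tyrosine) at chrM:5826-5891, MT-TN (asparagine) at chrM:5657-5729 and MT-TP (proline) at chrM:15956-16023, the last 4 on the minus strand.
MT-TH: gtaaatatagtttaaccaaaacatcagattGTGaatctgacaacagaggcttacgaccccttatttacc
MT-TC: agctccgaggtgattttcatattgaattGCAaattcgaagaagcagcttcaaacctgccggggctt
MT-TY: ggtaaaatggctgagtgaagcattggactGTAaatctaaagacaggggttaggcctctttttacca
MT-TN: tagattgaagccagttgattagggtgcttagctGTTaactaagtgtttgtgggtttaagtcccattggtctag
MT-TL1: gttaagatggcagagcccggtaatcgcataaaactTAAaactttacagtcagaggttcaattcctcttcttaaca
MT-TP: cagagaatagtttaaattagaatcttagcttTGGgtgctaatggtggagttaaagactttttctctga
MT-TN, MT-TC and MT-TY are neighbours in the genome, MT-TC and MT-TY share a base at position 5826, and MT-TH lies directly after MT-ND4. The genes are 66 to 75 bases long with a GC content of 33.8% (MT-TP) to 45.5% (MT-TC).

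Some mitochondrial genes overlap, and fragments that fell on more than 1 gene could be left out or given to a single gene. The stretch around the overlap of MT-ATP8 and MT-ATP6 is shown because it takes 46 of the 207 bases of MT-ATP8 (chrM:8519-8580, shared bases in capitals).
MT-ATP8 and MT-ATP6: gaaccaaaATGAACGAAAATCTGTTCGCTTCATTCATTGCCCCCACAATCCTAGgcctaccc
The capitals begin with the ATG of MT-ATP6 and end with the TAG of MT-ATP8. MT-ND4L and MT-ND4 share 7 bases. Since no strand was used in counting, a gene and RNA from the opposite strand of it cannot be told apart, and the values of overlapping genes are uncertain to that extent.

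METTL3 was lower in all 12 siMETTL3 libraries than in every siSCR library of the same line. It averaged 28.3 CPM (the count scaled to a library of 1000000 counted fragments) ± 2.34 (SD, n = 3) under siSCR and 18.1 ± 1.13 under siMETTL3 in LNCaP:C4-2 with vehicle, and 52.4 ± 1.67 and 23.4 ± 1.97 in 22Rv1 with R1881. By edgeR its log2 change was -0.61 and -0.57 in LNCaP:C4-2 with vehicle and R1881 (adjusted p = 0.0127 and 0.0256, the latter short of 1.5-fold), and -0.89 and -1.18 in 22Rv1 (adjusted p = 1.48e-06 and 1.29e-08). Library totals ran from 15716224 to 21306019 fragments. The prostate luminal markers HOXB13, KRT8, KRT18 and EPCAM passed the filter on low counts in both lines. Of 10 markers of other cell types, 4 passed it in LNCaP:C4-2 and 3 in 22Rv1. The highest were COL1A1, a fibroblast collagen, at 33.8 to 68.4 CPM in LNCaP:C4-2, and SYP, a neuroendocrine marker, at 80.3 to 132.3 CPM in 22Rv1, while the basal marker KRT5 had at most 2 counts in a library. The part of these markers in the mitochondrial values was not tested. Independently of the mitochondrial genes, 6 libraries stood apart on the leading axis of nuclear gene variation within groups, which held 53.2% of that variance in LNCaP:C4-2 and 43.1% in 22Rv1. They were siSCR vehicle library 3, siSCR R1881 libraries 2 and 3 and siMETTL3 vehicle library 1 of LNCaP:C4-2, and siSCR vehicle library 3 and siMETTL3 vehicle library 1 of 22Rv1. Nuclear protein-coding genes under 1000 bases took 0.425% to 0.479% of counts in the 4 such libraries of LNCaP:C4-2 against 0.522% to 0.574% in the other 8, and 0.514% to 0.516% in the 2 of 22Rv1 against 0.561% to 0.742% in the other 10. Many results that rest on them are given with and without them. They were picked for standing far from their groups, so a fit without them tests against a smaller spread. Smaller adjusted p-values in such fits therefore carry no weight of their own. Shares of all genes belong to the fits with no library left out. Counts of genes from the other fits have no such share beside them.

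Mitochondrial genes took 3.93% to 9.73% of the counts of a library. In LNCaP:C4-2 the share averaged 8.19% ± 0.251 (SD, n = 3) in siSCR vehicle, 8.83% ± 1.52 in siSCR R1881, 7.84% ± 1.52 in siMETTL3 vehicle and 6.76% ± 0.294 in siMETTL3 R1881. In 22Rv1 it averaged 6.43% ± 0.408, 5.07% ± 0.176, 5.92% ± 1.33 and 4.08% ± 0.156 in the same order. In 22Rv1, the R1881 libraries were thus below the vehicle libraries without overlap under both siRNA pools, and the siMETTL3 R1881 libraries (3.93% to 4.24%) were below the siSCR R1881 libraries (4.96% to 5.28%). The siMETTL3 R1881 libraries of LNCaP:C4-2 (6.46% to 7.05%) were also below its siSCR R1881 libraries (7.08% to 9.73%). Of the latter, libraries 2 and 3 stood apart. The 3 groups with an SD above 1 percentage point each held a library that stood apart. The siSCR vehicle groups also held such a library, with an SD of 0.251 in LNCaP:C4-2 and 0.408 in 22Rv1. The siMETTL3 vehicle share of 22Rv1 was 7.45% in the library that stood apart and 5.27% and 5.04% in the others, and that of LNCaP:C4-2 was 9.60% against 6.89% and 7.03%. In bulk RNA, fewer mitochondrial genomes per cell and less RNA from each cannot be told apart, and a share also moves with the nuclear RNA it is divided by.

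**Figure D1:**
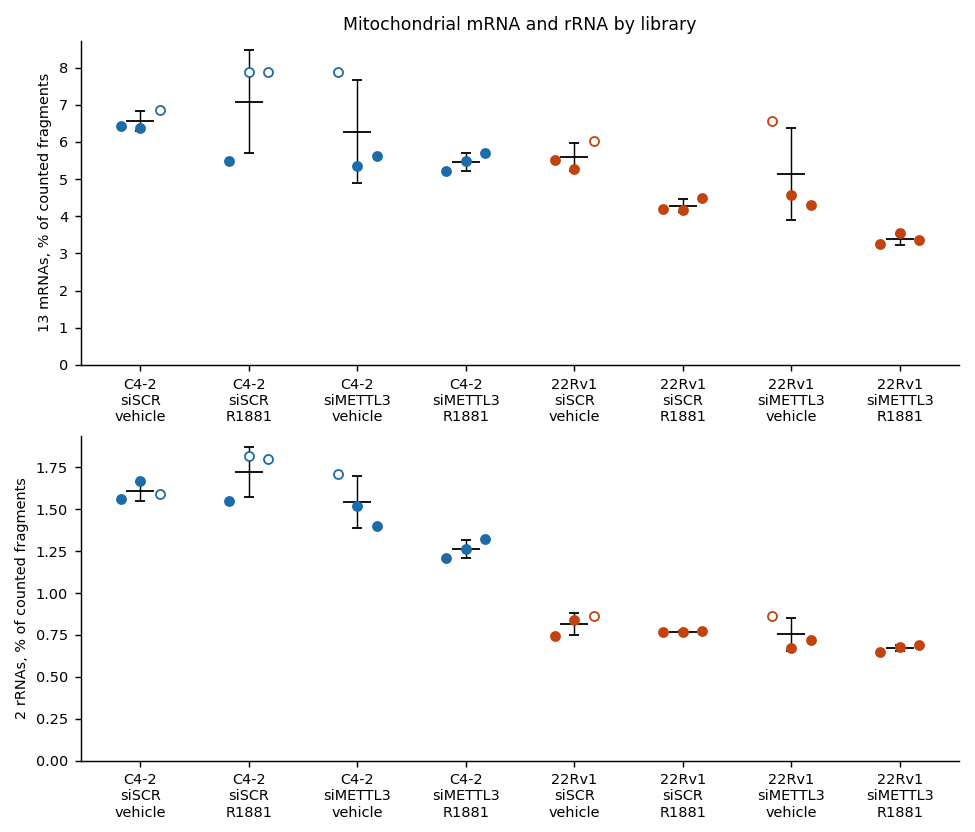
Percent of counted fragments from the 13 mitochondrial mRNAs (top) and the 2 rRNAs (bottom), 1 point per library, with group mean and SD. Open points are the 6 libraries that stood apart on nuclear genes, which lie at the top of their groups for the mRNAs. The mRNA share was lowest in 22Rv1 siMETTL3 R1881, at 3.38% ± 0.143.

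Most of these counts were mRNA. Of all counts, the mRNAs took 3.26% to 7.89%, the rRNAs 0.649% to 1.82% and the tRNAs 0.0135% to 0.0328%. Per length, in CPM per kilobase of gene (FPKM), MT-CO1, the catalytic subunit of complex IV, had the highest median in both lines, at 12569 FPKM in LNCaP:C4-2 and 8493 in 22Rv1. MT-CO2 followed the 16S rRNA MT-RNR2 in LNCaP:C4-2 (8335 and 8671 FPKM, with overlapping ranges over the 12 libraries) and stood second in 22Rv1 (7552 FPKM, range 5603 to 11842, overlapping that of MT-CO1). The complex I mRNAs ran from a median of 6558 FPKM for MT-ND4L to 1620 for MT-ND6 in LNCaP:C4-2. MT-ATP8, which shares a transcript with MT-ATP6, had the lowest value of the mRNAs. Its median was 451 FPKM against 7148 for MT-ATP6 in LNCaP:C4-2, and 263.1 against 4488 in 22Rv1. Counting only bases that no other gene shares raised its mean over the 24 libraries from 371.3 to 477.4 FPKM, still below every other mRNA. Fragments that reached from MT-ATP8 into MT-ATP6 could be left out of both or counted for MT-ATP6 alone, and this does not restore them. The gap is therefore no measure of their relative RNA levels. The 12S rRNA MT-RNR1 had a median of 1809 FPKM in LNCaP:C4-2 and 876.4 in 22Rv1.

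The tRNAs were sparsely counted. Only 4 of 22 had a median of at least 200 counts per library (MT-TN 1775, MT-TC 870.5, MT-TP 660 and MT-TL1 392.5), and 3 stayed under 10 counts in every library (MT-TF, MT-TA and MT-TK). The filter on low counts passed all mRNAs and rRNAs and, of the 22 tRNAs, 17 in LNCaP:C4-2 and in the fit of both lines and 13 in 22Rv1. MT-TF, MT-TW, MT-TA, MT-TK and MT-TS2 passed nowhere, and MT-TI, MT-TQ, MT-TM and MT-TS1 failed in 22Rv1. A count on a tRNA gene can come from uncut precursors as well as from the mature tRNA, and these data do not separate them. Fragments that reached from a tRNA gene into a neighbouring gene could be left out or counted for the neighbour. MT-TH lies directly between MT-ND4 and MT-TS2, so fragments that reached beyond its 69 bases could be lost to it. Such counts also depend on how many short fragments a library held, and the part of this in the tRNA values was not tested.

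The first comparison asked what R1881 does to mitochondrial transcripts in 22Rv1. All 13 mRNAs were lower with R1881 in every library than in every vehicle library, under siSCR and under siMETTL3. The median log2 change of the mRNAs was -0.33 under siSCR (range -0.44 to -0.23) and -0.56 under siMETTL3 (range -0.75 to -0.10), while the median over all genes tested was 0.0021 and 0.0034. In all, 15 of the 28 tested mitochondrial genes were lower without overlap under siSCR, against 24.7% of all genes tested, and 14 of 28 under siMETTL3, against 27.1%.

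MT-ND5, a membrane-arm subunit of complex I, had 3521, 3167 and 3456 CPM in the siSCR vehicle libraries and 2307, 2330 and 2524 CPM with R1881. Under siMETTL3 it had 4194, 3147 and 2816 CPM with vehicle and 1977, 2087 and 2022 CPM with R1881. The R1881 libraries lay below all vehicle libraries in both pools, and the high siMETTL3 vehicle value was that of the library that stood apart. By edgeR's quasi-likelihood test, MT-ND5 changed by -0.44 ± 0.10 (log2, SE; adjusted p = 0.00175) under siSCR and by -0.68 ± 0.10 (adjusted p = 1.83e-05) under siMETTL3. MT-CO1 had 16517, 16425 and 18420 CPM with vehicle and 13095, 13086 and 13942 CPM with R1881 under siSCR. Under siMETTL3 it had 19637, 13097 and 12486 CPM with vehicle and 9235, 9927 and 9785 CPM with R1881, a log2 change of -0.59 ± 0.11 (edgeR, adjusted p = 0.00041). With a library left out, this change ran from -0.70 to -0.34 and lost its call at 1.5-fold in 2 of 6 fits. That of MT-ND5 under siMETTL3 ran from -0.80 to -0.49 and lost its call in 1 of 6.

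Under siSCR, 12 of the 28 genes passed the adjusted p of edgeR, all lower, where 16.5% of all genes passed as lower and 16.6% as higher. They were MT-TY and 11 mRNAs, that is all but MT-ND1 (-0.26) and MT-ND4L (-0.42). Only MT-TY also reached the 1.5-fold threshold (-0.93 ± 0.34, adjusted p = 0.0392), where 13.8% of all genes did, and it lost that call without siSCR vehicle library 1 or 2 or siSCR R1881 library 2 or 3. MT-ND3 and MT-ND5 passed the adjusted p whichever library was left out. Under siMETTL3, 13 of 28 passed the adjusted p, again all lower, where 16.3% of all genes passed as lower and 16.8% as higher. They were MT-TL1 and every mRNA but MT-ND3, and 7 of them fell by at least 1.5-fold (MT-TL1, MT-CO1, MT-ND4L, MT-ND4, MT-ND5, MT-ND6 and MT-CYB), where 13.5% of all genes were called. Neither rRNA passed: MT-RNR1 was at 0.13 and MT-RNR2 at -0.045 under siSCR, and at 0.16 and -0.14 under siMETTL3. The rRNAs accordingly stood at 14.6% ± 1.25 of the mRNA counts in siSCR vehicle and 18% ± 0.674 in siSCR R1881, and at 14.9% ± 1.81 and 19.9% ± 0.696 under siMETTL3, with no overlap between vehicle and R1881.

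The size of the change under siMETTL3 moved with vehicle library 1, which stood apart. Without the libraries that stood apart, 12 of 29 genes tested passed the adjusted p as lower under siMETTL3, 10 of them mRNAs with a median over all 13 of -0.34, and 2 passed as higher, but only 1 mitochondrial gene was called at 1.5-fold. Under siSCR, 18 of 29 then passed as lower, including all 13 mRNAs, with a median of -0.26. Leaving out only siMETTL3 vehicle library 1 left 0 fold calls, leaving out siMETTL3 vehicle library 3 gave 11, and leaving out siMETTL3 R1881 library 1 gave 4. The interaction of R1881 and siMETTL3 passed in 0 of 28 genes by edgeR and by DESeq2 (4 of 28 at an unadjusted p under 0.05; 1101 of 17865 genes overall), where 0.0168% of all genes passed, so a larger R1881 response of the mRNAs under siMETTL3 was not shown. Without the libraries that stood apart, 4 tRNA genes passed (MT-TN 0.92, MT-TC 0.84, MT-TY 1.12 and MT-TH 1.55).

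**Figure D2:**
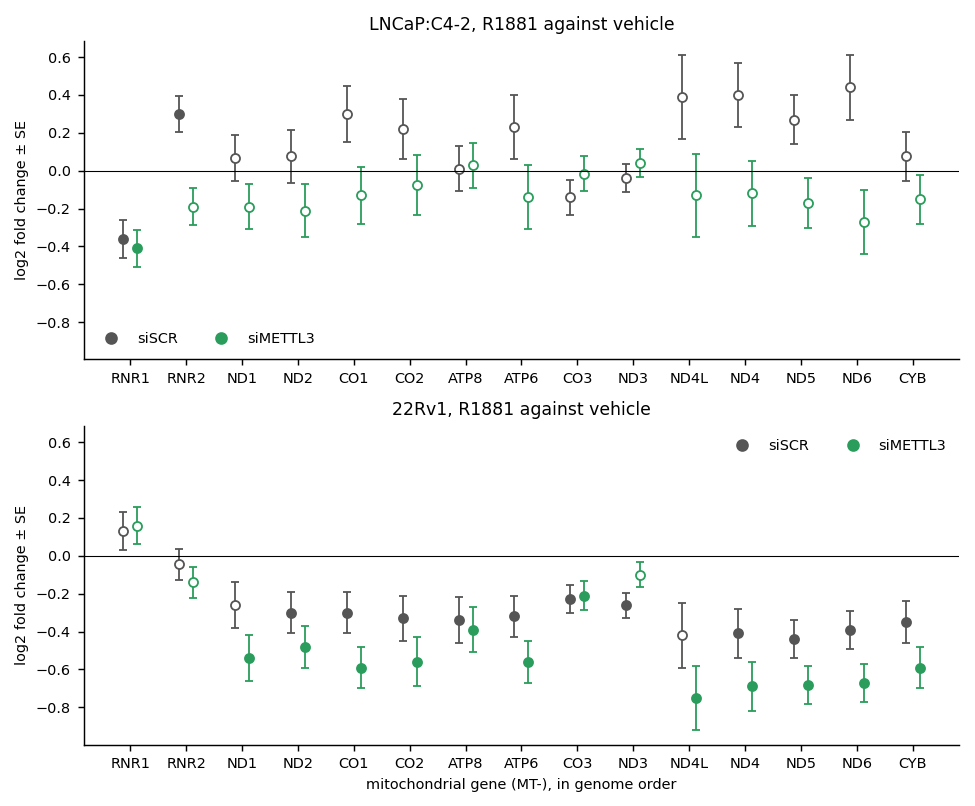
Log2 fold change of R1881 against vehicle with its SE for the 2 rRNAs and 13 mRNAs in genome order, in LNCaP:C4-2 (top) and 22Rv1 (bottom), under siSCR (grey) and siMETTL3 (green). Filled points passed an adjusted p under 0.05 in edgeR. In 22Rv1 all mRNA points lie below 0, and in LNCaP:C4-2 no mRNA passed.

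In LNCaP:C4-2, no mRNA passed the test for R1881, while MT-RNR1 was lower under both pools and MT-RNR2 and MT-TP were higher under siSCR. MT-RNR1 had 2333, 2636 and 2124 CPM in siSCR vehicle and 1649, 1764 and 1688 CPM in siSCR R1881. Under siMETTL3 it had 1673, 2031 and 1901 CPM with vehicle and 1272, 1226 and 1500 CPM with R1881. R1881 libraries were below all vehicle libraries in both pools. MT-RNR1 changed by -0.36 ± 0.0988 (edgeR, adjusted p = 0.0149) under siSCR and by -0.41 ± 0.0988 (adjusted p = 0.00918) under siMETTL3, both short of 1.5-fold, and by -0.45 and -0.48 without the libraries that stood apart (adjusted p = 0.00476 and 0.000215). Under siSCR, leaving them out left R1881 library 1 alone in its group, assumed to vary like the other groups. MT-RNR1 passed in 5 of 6 fits that left out a library under each pool. MT-RNR2, transcribed directly downstream of MT-RNR1 and MT-TV, was 0.30 ± 0.0968 higher under siSCR (adjusted p = 0.0346) and 0.16 without those libraries (adjusted p = 0.17), and it passed in only 1 of 6 fits that left out a library. The count of MT-RNR2 relative to MT-RNR1 was 5.33 to 6.46 in siSCR vehicle and 8.39 to 9.69 in siSCR R1881, with no overlap. In 22Rv1 this ratio went from 6.72 to 9.71 with vehicle to 6.32 to 8.11 with R1881 under siSCR, overlapping. Under siMETTL3 the pattern was not the same. In LNCaP:C4-2 the ratio was 6.36 to 9.24 with vehicle and 7.80 to 9.25 with R1881, overlapping, and in 22Rv1 it was 8.67 to 9.21 with vehicle and lower with R1881, at 7.10 to 7.41, without overlap.

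**Figure D3:**
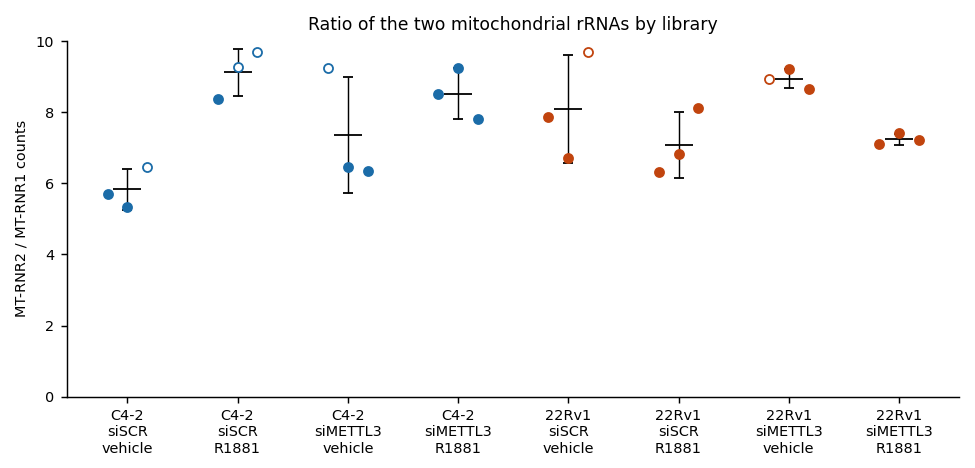
Ratio of MT-RNR2 to MT-RNR1 counts, 1 point per library, with group mean and SD, where open points are the libraries that stood apart. In LNCaP:C4-2 the siSCR ratio averaged 5.83 ± 0.579 with vehicle and 9.13 ± 0.666 with R1881. The siMETTL3 vehicle library that stood apart had the highest value of its group, 9.24.

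For LNCaP:C4-2 under siSCR, 1 of 32 tested mitochondrial genes was called at 1.5-fold, where 15.1% of all genes were. It was MT-TP, at 45.8, 49.4 and 53.7 CPM with vehicle and 53.9, 77.6 and 75.6 CPM with R1881, a log2 change of 0.59 ± 0.17 (edgeR, adjusted p = 0.0178), which was 0.32 (adjusted p = 0.0546) without the libraries that stood apart, and which lost its call without siSCR vehicle library 1 or 2 or siSCR R1881 library 2 or 3. Leaving out siSCR R1881 library 1 gave 5 calls. By the adjusted p alone, 1 gene was lower and 2 were higher, where 12.1% and 12.7% of all genes were. Under siMETTL3, MT-RNR1 alone passed the adjusted p (16.6% of all genes did), and 0 of 32 reached the fold threshold by edgeR or DESeq2 (2 of 32 at an unadjusted p under 0.05; 4833 of 16435 genes overall), where 10.6% of all genes were called. The mRNAs had a median of 0.22 under siSCR and -0.13 under siMETTL3. The medians without the libraries that stood apart were -0.08 and 0.06, both of the opposite sign. MT-ATP8 (-0.32, adjusted p = 0.0136) and MT-CO3 (-0.27, adjusted p = 0.0404) then passed as lower under siSCR, with 1 R1881 library left, and MT-ND4L as higher under siMETTL3 (0.27, adjusted p = 0.0209). Groups did not overlap downward in 4 of 32 genes under siSCR (30.4% of all genes) and in 4 of 32 under siMETTL3 (22.3%). The interaction passed in 0 of 32 genes by edgeR and DESeq2 (4 of 32 at an unadjusted p under 0.05), where 0.0% of all genes passed.

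The R1881 response was compared between the lines in a fit of all 24 libraries. Under siSCR, 4 of 32 mitochondrial genes differed (edgeR, adjusted p), where 16.8% of all genes did. The log2 change of 22Rv1 minus that of LNCaP:C4-2 was -0.81 ± 0.24 for MT-ND4 (adjusted p = 0.0213), -0.71 ± 0.18 for MT-ND5 (adjusted p = 0.00608), -0.83 ± 0.21 for MT-ND6 (adjusted p = 0.00791) and 0.49 ± 0.16 for MT-RNR1 (adjusted p = 0.0288). Leaving out siSCR R1881 library 1 of LNCaP:C4-2 gave 12 genes, and the share of all genes in that fit is not given here. MT-ND4, MT-ND5 and MT-ND6 encode complex I subunits, the first 2 on the plus strand and MT-ND6, next to MT-ND5, on the minus strand. Without the libraries that stood apart, the differences were -0.40 for MT-ND4 (adjusted p = 0.00279), -0.42 for MT-ND5 (adjusted p = 0.00151), -0.24 for MT-ND6 (adjusted p = 0.152) and 0.49 for MT-RNR1 (adjusted p = 0.00798), with siSCR R1881 library 1 of LNCaP:C4-2 alone in its group and assumed to vary like the other groups. Under siMETTL3, 1 of 32 differed, MT-RNR1 at 0.61 ± 0.16 (adjusted p = 0.00841), where 15.3% of all genes did. It was 0.78 without the libraries that stood apart. Leaving out siMETTL3 vehicle library 2 or siMETTL3 R1881 library 2 of LNCaP:C4-2 left 0, while leaving out siMETTL3 vehicle library 1 of LNCaP:C4-2 gave 12 and siMETTL3 vehicle library 2 or 3 of 22Rv1 gave 2 or 6.

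The second set of comparisons asked what METTL3 knockdown does. It shares its libraries with the R1881 comparisons. In 22Rv1 with R1881, mRNAs were lower and a group of tRNA genes was higher in the knockdown. By edgeR, 11 of 28 genes passed the adjusted p, 7 lower and 4 higher, where 7.28% of all genes were lower and 8.93% higher. At 1.5-fold, 5 of 28 were called, where 3.29% of all genes were.

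The 4 genes that rose were tRNA genes. MT-TH had 0.847, 0.580 and 0.601 CPM (15, 10 and 11 counts) under siSCR and 3.50, 3.89 and 3.13 CPM (55, 65 and 54 counts) under siMETTL3, a log2 change of 2.34 ± 0.50 (edgeR, adjusted p = 0.00484). MT-TC had 26, 20.3 and 18.9 CPM under siSCR and 51.2, 56.0 and 55.2 CPM under siMETTL3 (1.30 ± 0.27, adjusted p = 0.0041). MT-TY had 2.88, 2.32 and 1.37 CPM against 5.47, 4.96 and 5.80 CPM (1.29 ± 0.33, adjusted p = 0.0133), and MT-TN 79.0, 57.8 and 53.2 CPM against 96.7, 113.7 and 123.1 CPM (0.80 ± 0.20, adjusted p = 0.0114). The groups did not overlap for any of the 4. MT-TH and MT-TC passed whichever library was left out. MT-TY lost its call without siSCR R1881 library 3 or siMETTL3 R1881 library 1, and MT-TN without siSCR R1881 library 2 or 3.

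The genes that were lower were MT-TL1, MT-CO1, MT-CO2, MT-CO3, MT-ATP6, MT-ND1 and MT-ND4L. MT-TL1, the leucine tRNA between MT-RNR2 and MT-ND1, fell from 22.5, 22.4 and 21.2 CPM to 11.1, 12.6 and 16.6 CPM (-0.73 ± 0.19, adjusted p = 0.0137), and lost its call without siSCR R1881 library 2 or siMETTL3 R1881 library 1 or 2. The MT-CO1 change was -0.49 ± 0.11 (adjusted p = 0.00798), from values of 13095, 13086 and 13942 CPM to 9235, 9927 and 9785 CPM. MT-CO1 passed in 5 of 6 fits that left out a library, MT-ATP6 in 1, and MT-ND1, MT-CO2, MT-CO3 and MT-ND4L in 0. Over the 13 mRNAs the median was -0.29, against -0.023 over all genes tested. In 14 of 28 genes, 10 of them mRNAs, every knockdown library was below every siSCR library, where 20.6% of all genes were. None of these 6 libraries was among those that stood apart. Even so, short nuclear genes took 0.561% to 0.592% of counts in the siSCR R1881 libraries and 0.714% to 0.742% in the siMETTL3 R1881 libraries, and the part of that difference in the mitochondrial values was not tested.

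MT-TH, MT-TC, MT-TY and MT-TN also varied together within groups. In each of the 5 groups that held both kinds of library, all 4 were lower in every library that stood apart than in every other, with a median log2 ratio over the 5 groups of -2.13, -1.49, -1.29 and -0.95. MT-TP, MT-TL1 and 8 mRNAs (MT-ND1, MT-ND2, MT-CO1, MT-CO2, MT-ATP6, MT-ND4L, MT-ND4 and MT-CYB) were higher in all 5. MT-TH had 3 counts in siMETTL3 vehicle library 1 of LNCaP:C4-2 and 52 and 72 in libraries 2 and 3 of that group. The 3 siSCR R1881 libraries of 22Rv1 had 10 to 15 counts of MT-TH and 345 to 461 of MT-TC, close to the 10 and 17 and the 259 and 457 counts in the libraries of 22Rv1 that stood apart.

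**Figure D4:**
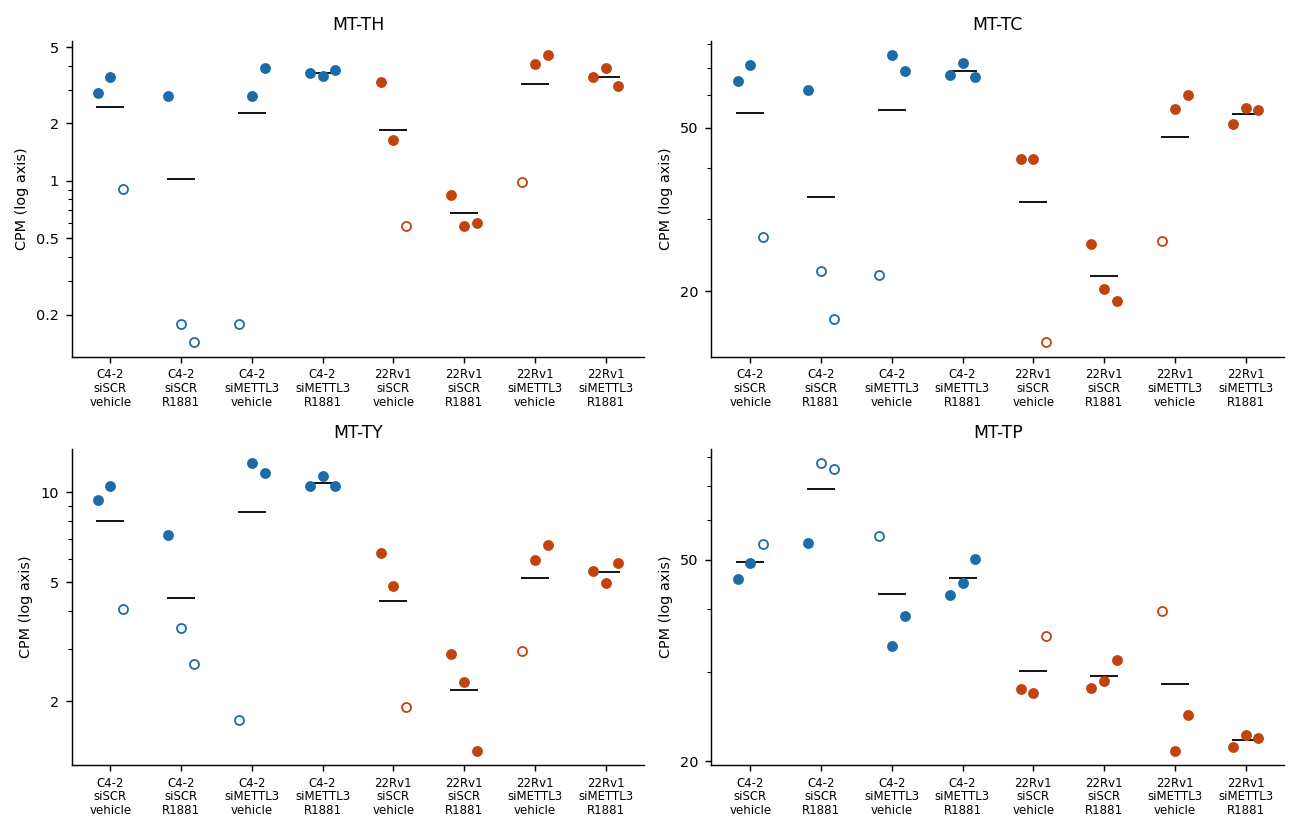
CPM of MT-TH, MT-TC, MT-TY and MT-TP on log axes, 1 point per library, with the group mean as a bar, where open points are the libraries that stood apart. Open points are the lowest of their groups for MT-TH, MT-TC and MT-TY and the highest for MT-TP. All siSCR R1881 libraries of 22Rv1 are low for the first 3 genes, and the siMETTL3 R1881 libraries are at 3.13 to 3.89 CPM for MT-TH.

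In 22Rv1 with vehicle, 0 of 28 mitochondrial genes passed in the knockdown by edgeR, with or without the fold threshold (4 of 28 at an unadjusted p under 0.05; 2604 of 17865 genes overall), and 0 by DESeq2. Of all genes, 0.56% passed the adjusted p and 0.202% were called at 1.5-fold, so few genes of any kind passed. All siMETTL3 libraries were below the siSCR libraries in 2 of 28 genes, where 6.38% of all genes were. MT-TL1 had 26.5, 29 and 29.5 CPM under siSCR, and 32.5, 18.2 and 16.2 CPM under siMETTL3, the first of these being the library that stood apart. Its log2 change was -0.37 ± 0.18 (edgeR, adjusted p = 0.34), and -0.70 (adjusted p = 5.97e-05) without the libraries that stood apart. Without them 12 of 29 genes passed the adjusted p as lower, 9 of them mRNAs, and 1 as higher. The share of all genes that passed in that fit is not given here. Leaving out siMETTL3 vehicle library 1 alone gave 5 calls at 1.5-fold.

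In LNCaP:C4-2, the knockdown gave no call at 1.5-fold. With vehicle, 0 of 32 genes passed by edgeR (4 of 32 at an unadjusted p under 0.05; 2637 of 16435 genes overall) and by DESeq2, where 1.56% of all genes passed the adjusted p and 1.2% were also at 1.5-fold. Groups did not overlap downward in 5 of 32 genes (13.7% of all genes). MT-TL1 had 27.7, 28.7 and 30.7 CPM under siSCR and 26.8, 15.9 and 16.7 CPM under siMETTL3, so the 2 libraries that did not stand apart were the lowest. Its change was -0.52 ± 0.17 (edgeR, adjusted p = 0.135), and -0.76 without the libraries that stood apart. Leaving out siMETTL3 vehicle library 1 alone gave 1 call at 1.5-fold.

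With R1881, MT-RNR2 was the 1 of 32 genes that passed the adjusted p in LNCaP:C4-2 (0.937% of all genes did), and 0 of 32 were called at 1.5-fold by edgeR (19 of 32 at an unadjusted p under 0.05; 4702 of 16435 genes overall) against 4 by DESeq2, where 0.7% of all genes were. MT-RNR2 had 13838, 16391 and 16360 CPM under siSCR and 10856, 11343 and 11697 CPM under siMETTL3 (-0.46 ± 0.0969, edgeR, adjusted p = 0.0372; -0.32 without the libraries that stood apart, adjusted p = 0.0425), and it passed in 1 of 6 fits that left out a library. Groups did not overlap in 11 of 32 genes that were lower and 6 that were higher, all 6 of them tRNA genes, where 33.2% of all genes did not overlap in either direction. MT-TH had 2.76, 0.179 and 0.143 CPM under siSCR and 3.64, 3.52 and 3.81 CPM under siMETTL3, and the 2 low libraries were those that stood apart. Its log2 change was 1.80 ± 0.80 (edgeR, adjusted p = 0.157), and 0.38 (adjusted p = 0.541) without them. The median over the 13 mRNAs was -0.36, and -0.06 without those libraries, which left siSCR R1881 library 1 alone in its group, assumed to vary like the other groups. Leaving out that library instead gave 13 calls, and the share of all genes called in that fit is not given here.

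No difference between the lines in the knockdown response passed in any of 32 genes by edgeR or DESeq2, with vehicle or with R1881. Of all genes, 0.458% and 0.0926% differed. At an unadjusted p under 0.05 by edgeR there were 0 with vehicle and 3 with R1881, against 2240 and 1469 of 19437 genes overall. Without the libraries that stood apart 5 genes passed with R1881. A missed threshold does not show that the lines responded alike.

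Both rRNAs were lower in 22Rv1 than in LNCaP:C4-2. MT-RNR1 averaged 2364 CPM ± 257.3 (SD, n = 3) in LNCaP:C4-2 and 910.5 ± 153.5 in 22Rv1 in siSCR vehicle (-1.53 ± 0.11, edgeR, adjusted p = 2.65e-12). MT-RNR2 averaged 13695 ± 372.2 and 7242 ± 631.6 CPM (-1.07 ± 0.0975, adjusted p = 2.16e-10). In all 4 conditions both rRNAs were called lower in 22Rv1, by -0.91 to -1.53 for MT-RNR1 and -1.07 to -1.41 for MT-RNR2. The rRNAs stood at 21.8% to 28.4% of the mRNA counts in the 12 libraries of LNCaP:C4-2 and 13.2% to 20.5% in those of 22Rv1, so the lines did not overlap.

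In siSCR vehicle, 14 of 32 genes were called lower in 22Rv1 and 1 higher, where 27.9% and 31.2% of all genes were. With R1881 under siSCR, the counts were 22 lower and 0 higher (27.5% and 32.6% of all genes). Under siMETTL3 they were 15 lower and 0 higher with vehicle (27.8% and 30.5%), and 20 lower and 0 higher with R1881 (27.5% and 33.2%). In siSCR R1881 the median log2 difference over the 13 mRNAs was -0.78. It was -0.49 without the libraries that stood apart, which left siSCR R1881 library 1 of LNCaP:C4-2 alone in its group. MT-ATP6, MT-ATP8 and MT-ND4L were called lower in all 4 conditions. With a library left out, 3 of 6 fits lost the call of MT-ATP6 in siSCR vehicle and of MT-ATP8 in siMETTL3 vehicle. For MT-ND4L 3 of 6 lost it in each vehicle condition, and for MT-ATP6 1 of 6 in siMETTL3 vehicle. With R1881 these genes kept their calls in every such fit. MT-ND3, MT-CO3, MT-TN, MT-TC, MT-TH and MT-TL1 were called in none. Among the tRNAs, MT-TV (valine), which separates the rRNAs, averaged 3.57 CPM ± 0.372 and 0.677 ± 0.084 in siSCR vehicle (-2.54 ± 0.31, adjusted p = 3.73e-08), and MT-TT (threonine) 3.25 ± 0.416 and 0.678 ± 0.203 (-2.40 ± 0.28, adjusted p = 1.89e-08). MT-TE and MT-TP were also called lower in all 4 conditions. So were MT-TI, MT-TM and MT-TQ, but these and MT-TS1 failed the filter on low counts within 22Rv1. They entered this fit through LNCaP:C4-2, so a lower value in 22Rv1 was largely set by the filter. The numbers of genes called lower include them, and are smaller with at least 10 counts in every library, as given below. MT-TI lost its call in 4 of 6 fits that left out a library in each R1881 condition. MT-TQ was at 0 counts in the 3 siMETTL3 R1881 libraries of 22Rv1 and at 8 to 13 in those of LNCaP:C4-2. The only gene called higher was MT-TR, at 0.65, in siSCR vehicle, with 0.52 (adjusted p = 0.106) without the libraries that stood apart. Leaving out siMETTL3 vehicle library 2 of 22Rv1 took the calls under siMETTL3 with vehicle from 15 to 9.

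Near-identical copies of mitochondrial DNA on chromosome 1 were counted as separate genes. MTCO1P12 (chr1:631074-632616, hg38, plus strand) matches MT-CO1 with 20 mismatches over 1542 aligned bases, and MTATP6P1 (chr1:633696-634376) matches MT-ATP6 with 10 over 681. By the counter's default, fragments that aligned to more than 1 place were left out, so both members of a pair are uncertain. The 90-base stretch with the most mismatches is shown for each pair, at chrM:6210-6299 and chr1:631380-631469, and at chrM:8629-8718 and chr1:633798-633887, with the 4 mismatches in capitals.
MT-CO1: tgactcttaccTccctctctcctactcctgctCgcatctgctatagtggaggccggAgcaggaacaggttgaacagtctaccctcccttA
MTCO1P12: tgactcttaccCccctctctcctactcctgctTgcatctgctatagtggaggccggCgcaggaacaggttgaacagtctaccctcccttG
MT-ATP6: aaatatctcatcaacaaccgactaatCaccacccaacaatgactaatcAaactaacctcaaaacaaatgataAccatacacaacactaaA
MTATP6P1: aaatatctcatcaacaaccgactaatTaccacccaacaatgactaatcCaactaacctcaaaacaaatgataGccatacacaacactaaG
MTATP6P1 stood at 6.2% to 8.09% of the MT-ATP6 count in all 24 libraries, and was 0.25 lower (log2; edgeR, adjusted p = 0.127) in the 22Rv1 knockdown with R1881, where MT-ATP6 changed by -0.34.

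MTCO1P12 and MT-CO1 moved in opposite directions in the 22Rv1 knockdown with R1881. There MTCO1P12 had 29, 24.1 and 24.9 CPM under siSCR and 54.3, 46.6 and 48.4 CPM under siMETTL3, and rose by 0.92 ± 0.15 (log2; edgeR, adjusted p = 0.000817), while MT-CO1 was lower. With R1881 under siSCR it fell from 60.3, 46.6 and 47.7 CPM to 29, 24.1 and 24.9 CPM (-0.92 ± 0.14, adjusted p = 3.79e-05). Both calls held whichever library was left out. In LNCaP:C4-2 the knockdown changes were 0.37 ± 0.20 (adjusted p = 0.393) with vehicle and 0.73 ± 0.20 (adjusted p = 0.0712) with R1881, and 0.57 (adjusted p = 0.0027) and 0.81 (adjusted p = 0.0024) without the libraries that stood apart. Relative to MT-CO1, its count was 0.179% to 0.397% in the 12 siSCR libraries. It was 0.441% to 0.622% in 10 of the 12 siMETTL3 libraries, and 0.194% and 0.229% in the siMETTL3 libraries that stood apart.

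**Figure D5:**
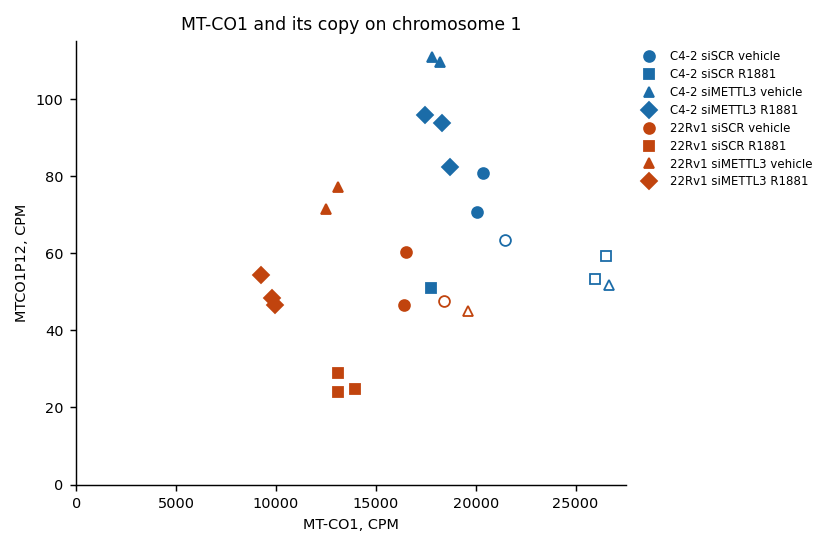
CPM of MT-CO1 (x axis) and of its chromosome 1 copy MTCO1P12 (y axis), 1 point per library, with LNCaP:C4-2 in blue, 22Rv1 in orange-red and shape by group. Open points are the libraries that stood apart. In 22Rv1, the siMETTL3 R1881 libraries (diamonds) have less MT-CO1 and more MTCO1P12 than the siSCR R1881 libraries (squares).

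Nuclear genes that serve mitochondrial gene expression were taken as 3 lists. Of 17 genes for mitochondrial transcription and DNA maintenance, 40 for mitochondrial RNA processing, stability and modification and 9 nuclear regulators of mitochondrial biogenesis, none was called at 1.5-fold in any of the 4 knockdown comparisons, where 0.202% to 3.29% of all genes were. With R1881 in 22Rv1, 12 of the 40 RNA processing genes were higher and 1 lower by the adjusted p under siSCR, and 17 were higher and 1 lower under siMETTL3. Of all genes, 16.6% were higher and 16.5% lower under siSCR, and 16.8% and 16.3% under siMETTL3. The median over the 40 was 0.14 and 0.22, against 0.0021 and 0.0034 over all genes tested. SLIRP, which with LRPPRC stabilises mitochondrial mRNAs, had 28.7, 29.1 and 31.5 CPM with vehicle and 45, 46.0 and 44.1 CPM with R1881 under siMETTL3 in 22Rv1 (0.66 ± 0.09, edgeR, adjusted p = 1.04e-05). It was the only one of the 66 genes called at 1.5-fold within 22Rv1, where R1881 called 13.8% of all genes under siSCR and 13.5% under siMETTL3.

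In LNCaP:C4-2, where R1881 called 15.1% of all genes at 1.5-fold under siSCR and 10.6% under siMETTL3, NRF1 fell. It is a transcription factor of genes for the respiratory chain. NRF1 had 30.7, 32.4 and 31.4 CPM in siSCR vehicle and 16.7, 17 and 16.9 CPM in siSCR R1881 (-0.78 ± 0.11, edgeR, adjusted p = 0.000101), and it changed by -0.92 ± 0.11 (adjusted p = 2.56e-05) under siMETTL3. PPARGC1A, which encodes the coactivator PGC-1α, had 12.7, 11.0 and 8.01 CPM with vehicle and 6.04, 5.76 and 6.44 CPM with R1881 under siMETTL3 (-0.72 ± 0.20, adjusted p = 0.0217), and 4 of 6 fits that left out a library lost this adjusted p.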

How the data were processed

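RNA-seq libraries of LNCaP:C4-2 and 22Rv1 were compared, 24 in all. The authors trimmed reads with Trim Galore and Cutadapt, checked them with FastQC, aligned them to GRCh38 with STAR and made the deposited raw counts per gene with featureCounts 1.5.0 patch 1 and Ensembl release 83, in paired mode with no strand option named. How RNA was selected for the libraries is not given in the sources used here. Library totals were 15716224 to 21306019 counts, and their number limits the precision of the sparse tRNA counts. Intervals and floors would cover counting error only, and none are printed.

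Groups came from the labels. Counts were fitted with edgeR 4.0.16 in R 4.3.3 (TMM scaling, quasi-likelihood test, limma 3.58.1), within each line for knockdown, R1881 and their interaction (8 residual degrees of freedom) and over both lines for line comparisons (16). Genes passed filterByExpr with a minimum count of 10 and total of 15, and p-values were adjusted over all genes by Benjamini-Hochberg. A call needed an adjusted p under 0.05 and a 1.5-fold change, and for interactions and line differences the adjusted p alone. The SE is the size of the log2 change divided by the root of the F statistic. CPM used library totals, and FPKM also the gene length. DESeq2 1.42.0, other scalings, filters, thresholds (0.01), each library left out and the replicate number as a block were alternatives. The scripts were tested on simulated data. Python 3.11.15 with numpy 2.4.6, pandas 2.3.3, scipy 1.17.1 and matplotlib 3.10.9 did the rest. Gene sequences came from hg38.

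The members and lists were chosen with earlier results of these data known. Libraries that stood apart were those with a score of at least 0.2 on the leading axis of within-group variation of nuclear genes. This rule, the fits without those libraries and the fits with a batch term for them were chosen after seeing the data. By that choice the spread in both kinds of fit is smaller, so their adjusted p-values may be too small. The named genes were the mitochondrial genes, METTL3, the called genes of the nuclear lists (all in knockdown comparisons, the 3 largest in each other comparison within a line), the 3 nuclear copies with the highest mean CPM, and the markers, some of which are not reported here. The third copy, MTND2P28, matches MT-ND2 with 17 mismatches over 1042 bases and stood at 0.216% to 0.453% of its count.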

Additional observations from a re-analysis of the deposited data

Results flagged for a closer look

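The log2 response to R1881 differed between the lines for 4 of 32 mitochondrial genes under siSCR and 1 of 32 under siMETTL3. This was edgeR's test of the difference itself, by which 16.8% and 15.3% of all genes differed. Under siSCR the value of 22Rv1 minus that of LNCaP:C4-2 was 0.49 for MT-RNR1, -0.81 for MT-ND4, -0.71 for MT-ND5 and -0.83 for MT-ND6, and under siMETTL3 it was 0.61 for MT-RNR1. MT-ND4, MT-ND5 and MT-ND6 passed in 12 of 12 fits that left out a library, and MT-RNR1 in 3 of 12 under siSCR and 8 of 12 under siMETTL3. Without the libraries that stood apart, MT-ND4 was at -0.40 (adjusted p = 0.00279) and MT-ND5 at -0.42 (adjusted p = 0.00151), and MT-ND6 lost its call (-0.24, adjusted p = 0.152). That fit has a single siSCR R1881 library of LNCaP:C4-2. By DESeq2 the adjusted p of MT-RNR1 was 0.051 under siSCR and 0.0133 under siMETTL3. Both siSCR R1881 libraries of LNCaP:C4-2 with the highest mitochondrial mRNA share stood apart on nuclear genes, and the part of this in the difference was not tested beyond the fits without them.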

How the results depend on the processing

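Numbers are mitochondrial genes called, with the reported value in brackets where it helps. DESeq2 gave 4 for the LNCaP:C4-2 knockdown with R1881 (0), 0 for R1881 under siSCR in 22Rv1 (1) and 2 for the line difference of R1881 under siMETTL3 (1), and RLE size factors and scaling over nuclear genes also gave 2 there. Library size alone gave 0 for R1881 under siSCR in LNCaP:C4-2 (1), and shifted the median of all genes by -0.12 there and by 0.15 to 0.22 between the lines. No filter on low counts gave 9 for the LNCaP:C4-2 knockdown with R1881, 3 for R1881 under siSCR in each line, 10 and 3 for the interaction in LNCaP:C4-2 and 22Rv1, and 13 and 9 for the line difference of R1881 under siSCR and siMETTL3. At least 10 counts in every library gave 5, 12, 5 and 11 between the lines (15, 22, 15 and 20), with fewer tRNA genes tested, and 7 and 2 for the line differences of R1881. Only the 6 libraries compared gave 5 for the LNCaP:C4-2 knockdown with R1881.

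Without the libraries that stood apart, the knockdown with vehicle gave 1 in LNCaP:C4-2 and 2 in 22Rv1, R1881 in 22Rv1 gave 4 under siSCR and 1 under siMETTL3, the 22Rv1 interaction gave 4, and the line differences gave 5 for the knockdown with R1881 and 11 and 12 for R1881. A batch term for those libraries gave 0 for R1881 under siSCR in LNCaP:C4-2, 2 for the 22Rv1 knockdown with vehicle, 4 and 0 for R1881 in 22Rv1, 4 for the 22Rv1 interaction, and 1, 3, 8 and 12 for the line differences. An adjusted p under 0.01 gave 0 for R1881 under siSCR in both lines, 2 for the 22Rv1 knockdown with R1881 and 2 for the line difference of R1881 under siSCR. No fold threshold gave 1, 3 and 1 in LNCaP:C4-2 (knockdown with R1881, R1881 under siSCR and siMETTL3) and 11, 12 and 13 in 22Rv1. Beyond what each setting's construction fixes, the cause was not tested.

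The log2 ratio of the mitochondrial share was -0.067 without the libraries that stood apart for the LNCaP:C4-2 knockdown with R1881 (-0.39), -0.19 for R1881 under siSCR in LNCaP:C4-2 (0.11) and -0.48 between the lines in siSCR R1881 (-0.80). It was -0.042 for R1881 under siMETTL3 in LNCaP:C4-2 (-0.21), -0.34 in 22Rv1 (-0.54), and -0.21 and -0.27 for the knockdown with vehicle in LNCaP:C4-2 and 22Rv1 (-0.064 and -0.12). Between the lines in siSCR vehicle it was -0.38 without those libraries (-0.35). With all libraries kept, the ratio there was -0.23 over the 13 mRNAs alone. The level per length of MT-ATP8 was 477.4 on bases of a single gene (371.3).

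With each library left out, counts ran from 0 to 1 and 0 to 13 for the LNCaP:C4-2 knockdown with vehicle and R1881, 0 to 5 for R1881 under siSCR in LNCaP:C4-2, 0 to 5 and 3 to 5 for the 22Rv1 knockdown, 0 to 4 and 0 to 11 for R1881 in 22Rv1, 0 to 1 for the 22Rv1 interaction, 9 to 15 between the lines in siMETTL3 vehicle, and 3 to 12 and 0 to 12 for the line differences of R1881. No pairing by replicate number was seen: same-numbered libraries had a mean correlation of deviations of -0.011 in LNCaP:C4-2 and -0.004 in 22Rv1. Single pairs ran from -0.566 to 0.458 and from -0.453 to 0.352, and a shared culture per number was not excluded. The replicate block gave 0 for R1881 under siSCR in 22Rv1 (1) and moved no other count by over 1.5 times. No called value changed sign. The share did for R1881 under siSCR in LNCaP:C4-2, as given above, and for the LNCaP:C4-2 knockdown with vehicle it ran from -0.24 to 0.021 with a library left out. Of the values of single genes, 760 of the alternatives kept their call and 110 lost it, and 476 and 100 with a library left out. The sparse counts of most tRNA genes limit what can be seen of them.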
